A study of Mus musculus with 12 samples.

Results

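Very wide open chromatin regions are stretches of at least 1500 bp that an assay for transposase-accessible chromatin (ATAC-seq) called as 1 continuous region in dorsal root ganglia (DRG) of vehicle-treated mice, and that were also called, at least in part, after treatment with MS275. They were found by merging overlapping entries within each of 2 deposited peak lists and keeping autosomal vehicle regions of that width that overlapped a merged MS275 region by at least 1 bp. This gave 3570 regions of the 84006 autosomal vehicle regions that overlapped an MS275 region. Members were chosen by the measured vehicle width and by the overlap of the called regions, so every value below on their widths, summits and fold enrichment is a description and carries no test.

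All mice were C57BL/6 animals of 6 to 8 weeks, and all of them, vehicle-treated ones included, had a dorsal column axotomy (DCA), a spinal cord lesion that cuts the central branch of DRG neurons. MS275, also known as entinostat, inhibits histone deacetylases of class I. A dose of 12 mg/kg was given intraperitoneally with the injury and repeated 2 h before the animals were killed, and vehicle mice received the solvent at the same times. Lumbar DRG were taken 24 h after the lesion. ATAC-seq had 3 libraries per treatment, each from 1 mouse, but each peak list combines the 3 libraries of a treatment, so the widths have no replicates. RNA-seq had 3 libraries per treatment, each from the pooled DRG of 2 mice, and p-values from it measure the spread between such pools only. The ganglion holds sensory neurons, satellite glia, Schwann cells, vessels and other cells, and the deposited bulk values do not separate fewer cells of a type from less RNA or less accessible DNA per cell.

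As background, an open region is DNA that nucleosomes do not fully cover and that transposase can therefore cut. At most promoters the opening is a short gap around the transcription start site, while broad openings cover several neighbouring nucleosome-free stretches, often over CpG islands, the CpG-rich promoters of housekeeping and developmental genes. Histone deacetylases remove acetyl groups from histone tails, and acetylated histones are found around active promoters.

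The RNA libraries held 34992533 to 60370523 reads assigned to genes, and an edgeR quasi-likelihood test tested 16819 genes. The defining genes of sensory neurons were high in every library, with 8 of 8 detected and a summed level of 17300 to 20100 CPM (reads of a gene scaled to a fixed total per library). Striated muscle genes, 9 of 9 detected and none at 0, differed between libraries. Their summed level was 6.11 to 56 CPM in the vehicle libraries, 642 CPM in MS275 replicate 1, and 90.2 and 96 CPM in MS275 replicates 2 and 3. No striated muscle gene of the 15 tested lay at a very wide region, and the part of muscle RNA in the results on other genes was not tested.

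Promoter sequences are shown for 5 genes that carry the RNA results below, with B2m, Sox4 and Ier5 among the genes that rose and Ep300 and Mier3 among those that fell, and with starts that lie inside a very wide region. Each runs 5′ to 3′ on the gene's strand over 300 bases, 250 before the start and 50 from it, and comes from RefSeq (GRCm38.p6). Capitals mark matches to the GC box, CCAAT box and TATA box on either strand. Ier5 lies on the minus strand at chr1:155099587-155099886, Sox4 on the minus strand at chr13:28953650-28953949 and B2m on the plus strand at chr2:122147437-122147736. Mier3 lies on the plus strand at chr13:111685928-111686227 and Ep300 on the plus strand at chr15:81585964-81586263.
Ier5: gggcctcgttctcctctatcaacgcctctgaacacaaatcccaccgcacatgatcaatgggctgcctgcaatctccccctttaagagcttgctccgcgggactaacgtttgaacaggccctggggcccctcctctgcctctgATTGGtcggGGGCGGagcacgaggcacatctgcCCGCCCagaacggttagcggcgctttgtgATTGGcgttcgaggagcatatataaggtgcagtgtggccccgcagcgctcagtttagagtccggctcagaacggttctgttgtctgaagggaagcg
Sox4: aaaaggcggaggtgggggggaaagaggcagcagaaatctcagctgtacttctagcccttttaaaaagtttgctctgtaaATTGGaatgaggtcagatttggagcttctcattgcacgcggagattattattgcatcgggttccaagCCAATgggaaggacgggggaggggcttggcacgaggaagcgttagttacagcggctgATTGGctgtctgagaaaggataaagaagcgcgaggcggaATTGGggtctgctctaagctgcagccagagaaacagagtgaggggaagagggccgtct
B2m: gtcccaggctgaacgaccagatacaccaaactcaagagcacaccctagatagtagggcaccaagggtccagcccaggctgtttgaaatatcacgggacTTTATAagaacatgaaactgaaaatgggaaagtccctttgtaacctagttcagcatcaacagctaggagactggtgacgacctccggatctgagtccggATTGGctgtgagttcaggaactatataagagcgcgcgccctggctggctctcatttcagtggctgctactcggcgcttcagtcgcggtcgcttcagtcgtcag
Mier3: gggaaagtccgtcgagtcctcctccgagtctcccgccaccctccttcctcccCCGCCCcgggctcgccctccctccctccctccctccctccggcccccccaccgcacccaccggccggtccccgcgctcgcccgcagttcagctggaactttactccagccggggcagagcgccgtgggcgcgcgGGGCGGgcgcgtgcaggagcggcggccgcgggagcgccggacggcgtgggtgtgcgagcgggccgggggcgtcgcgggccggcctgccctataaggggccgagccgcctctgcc
Ep300: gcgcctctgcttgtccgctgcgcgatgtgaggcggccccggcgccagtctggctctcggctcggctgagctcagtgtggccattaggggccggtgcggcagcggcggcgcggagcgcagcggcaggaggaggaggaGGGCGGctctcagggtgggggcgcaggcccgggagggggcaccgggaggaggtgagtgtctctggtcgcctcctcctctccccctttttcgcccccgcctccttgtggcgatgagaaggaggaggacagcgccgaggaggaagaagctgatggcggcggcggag
The Mier3 promoter was 78.7% G and C with 41 CpG dinucleotides, and the Ep300 promoter 72.3% with 30. Ier5 stood at 59% with 20 CpG, B2m at 52.3% with 14 and Sox4 at 52% with 12. Other genes named below, whose promoters are not printed, did not all keep this order. Of genes that rose, Ddit4 had 69% with 26 CpG and Insm2 53.3% with 14. Suv420h1, which fell, had 57.3% with 16 CpG and 71.3% with 38 at its 2 listed starts. The GC box occurs 2 times in Mier3 and in Ier5 and 1 time in Ep300, and the CCAAT box occurs 4 times in Sox4, 2 times in Ier5 and 1 time in B2m.

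Promoters inside very wide regions were richer in G, C and CpG than promoters at large. The table of listed promoters held 2964 with a start inside such a region, and their median G and C content was 66.3%, against 53% over all 31396 autosomal promoters. The median number of CpG dinucleotides was 27 against 7, and the ratio of observed to expected CpG had a median of 0.838 against 0.389. Promoters inside shared regions of 1000 bp to under 1500 bp lay close behind, with 63.7%, 24 CpG and a ratio of 0.808. Motifs were searched as plain letters on both strands, each on its own, so a base may count for more than 1 motif. The GC box (GGGCGG), the site of Sp1-family factors, was present in 75.0% of the promoters in very wide regions and in 36.0% of all promoters. The TATA box (TATAAA) was present in 4.52% against 13.6%, and the AP-1 motif (TGANTCA) in 3.07% against 7.84%. The CRE (TGACGTCA), site of CREB, had 3.17% against 1.83%, the E-box (CACGTG) 9.78% against 7.14%, the NRF1 motif 1.52% against 0.968%, and the CCAAT box (CCAAT) 33.5% against 37.3%. Promoters in shared regions of 1000 bp to under 1500 bp held the GC box in 71.7%, the TATA box in 4.81%, the AP-1 motif in 4.06% and the CCAAT box in 36.6%. In that class the NRF1 motif (2.59%) and the E-box (10.3%) were more frequent than in very wide regions, and the CRE (3.09%) was near their value, with 3.56% in regions of 500 bp to under 1000 bp. A match is a description of the letters and shows no binding.

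Vehicle widths of the very wide regions ran from 1500 to 4444 bp, with a median of 1708.5 bp and 95% of them under 2293 bp. In 2591 of them (72.6%) a single MS275 region lay over a single vehicle region. In 901 (25.2%) several MS275 regions lay over 1 vehicle region, and in 78 (2.18%) the MS275 region also reached another vehicle region. Another 47 autosomal vehicle regions of at least 1500 bp had no MS275 overlap and are not members. MS275 regions covered a median of 86.6% of a member's length.

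With MS275 the regions were narrower by a median of 186 bp, measured as the summed width of the overlapping MS275 regions, which had a median of 1549.5 bp. The median log2 ratio of MS275 to vehicle width was -0.16, with the middle 50% of regions between -0.40 and -0.01. Of the 3570 regions, 2758 were narrower (77.3%, exact binomial 95% interval 75.8% to 78.6%, which covers counting only), 810 were wider and 2 were equal. The share that was narrower climbed with vehicle width. It was 33.7% among shared regions under 500 bp, 62.9% from 500 bp to under 1000 bp, 70.8% from 1000 bp to under 1500 bp, and, among the very wide regions, 75.1% in the 2013 narrowest and 85.9% in the 78 of at least 2500 bp. Just above the threshold, 98 regions within 10 bp had a median MS275 width of 1387 bp and 69.4% were narrower. Just below it, 95 regions had a median of 1320 bp and 82.1% were narrower.

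The direction of the width difference turned with the list used to choose the regions. When the 2448 MS275 regions of at least 1500 bp that overlapped a vehicle region were taken instead, 42.8% were narrower with MS275 and the median log2 ratio was 0.03. When regions were taken by a mean of both widths of at least 1500 bp, 58.3% of 2925 were narrower and the median log2 ratio was -0.04. Over all 84006 shared regions 51.8% were narrower. The count of very wide regions differed as well, with 3617 in the vehicle list and 2459 in the MS275 list, from 277369 and 246602 entries.

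**Figure D1:**
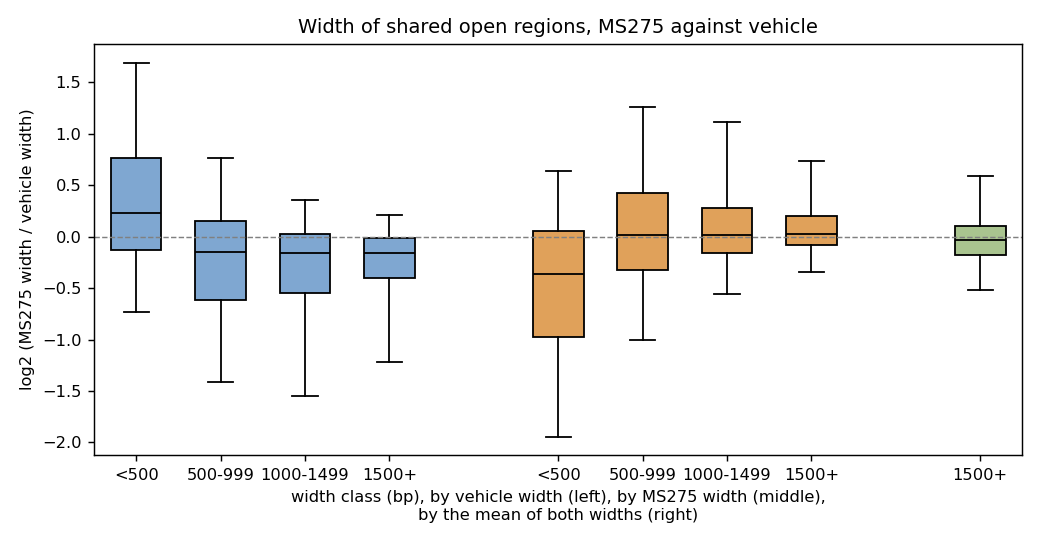
Log2 ratio of MS275 to vehicle width (y axis) for shared regions by width class in bp (x axis), with classes set by the vehicle list (blue), the MS275 list (orange) or the mean of both widths (green). Boxes hold the middle 50%, lines mark medians and whiskers the central 90%; the median of the very wide class is -0.16, 0.03 and -0.04 in that order.

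The single regions show how far this went. The widest, of 4444 bp at chr4:3050071-3054514 (mm10), lay outside annotated genes, had 12 summits, and was covered by 4 MS275 regions of 3522 bp in all. The widest at a gene start was 3835 bp at Shisa5, which encodes an endoplasmic reticulum protein, and measured 3569 bp with MS275. The shared start of Txndc17, a thioredoxin-domain protein, and 4933427D14Rik held 3670 bp in vehicle and 3407 bp with MS275. Also among the 10 widest, the region at Nsd1, a histone H3 lysine methyltransferase, was 3390 bp in vehicle and 3338 bp with MS275. That at Arid1a, a subunit of the BAF remodelling complex, was 3299 bp and 2991 bp. The other widest regions lay at Csf2ra (3649 bp and 3313 bp), at Ugt1a1 (3432 bp and 3370 bp), in the bodies of Adgrl2 (3737 bp and 3046 bp) and Nelfa (3797 bp and 1215 bp), and in Gm7827 (3187 bp and 3232 bp).

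At the other extremes, the largest gain was in the body of Gpsm1, from 1606 bp to 3273 bp in 2 MS275 regions. The next were at a start of Erbb4, a neuregulin receptor, from 1645 bp to 2815 bp, at Gm10710 inside Dchs2, from 1549 bp to 2636 bp, at Rreb1, a zinc-finger factor downstream of Ras, from 1656 bp to 2817 bp, and in the body of Atn1, from 1533 bp to 2602 bp. These RNA values did not pass the test at Erbb4 (log2 fold change 0.16, adjusted p 0.747 by edgeR's quasi-likelihood test with Benjamini-Hochberg adjustment) or at Rreb1 (-0.21, adjusted p 0.320). The 5 largest losses kept 0.108 to 0.131 of their width. They lay in the bodies of Mroh5, Gm29776, Dpp6 and Poln and at 1 site outside genes, and each went from 3 to 6 summits to 1 summit. None of these 5 had a gene start within 1000 bp.

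A summit is the local maximum of signal that the peak caller reports, and a wide region can hold several. The very wide regions held 16647 vehicle summits, with a median of 5, and most had 4 (1059 regions) or 5 (1049 regions). Only 8 had 1 summit, and the most was 14, in the Adgrl2 region. The median distance between neighbouring summits was 319 bp, with the middle 50% from 247 to 427 bp. In shared regions of 1000 bp to under 1500 bp it was 306 bp, and from 500 bp to under 1000 bp it was 267 bp. The width of a region limits the distance between its summits, so the order of these classes partly follows from the choice by width. With MS275 the regions over them held 14812 summits, a median of 4, at a median distance of 304 bp.

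Summits were fewer with MS275 in 1762 regions (49.4%), more in 889 (24.9%) and equal in 919. As with width, the list that chose the regions decided the direction. Taken by MS275 width, 31.6% had fewer and 41.4% more, and taken by the mean of both widths 35.8% had fewer and 37.6% more. The fold enrichment at the highest vehicle summit, the authors' own value for each peak, ran from 1.44 to 15.0 with a median of 3.25, against 2.50 in shared regions of 1000 bp to under 1500 bp and 1.85 from 500 bp to under 1000 bp.

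**Figure D2:**
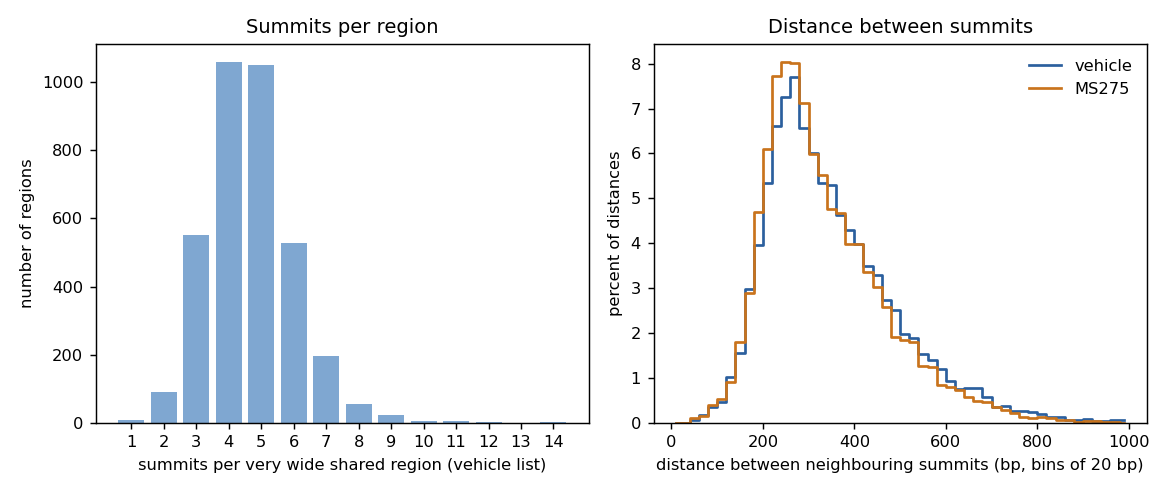
Left, number of very wide shared regions (y axis) by number of vehicle summits (x axis). Right, percent of distances between neighbouring summits (y axis) in 20 bp bins (x axis, bp) for the vehicle list (blue) and the MS275 list (orange); regions with 4 or 5 summits are the most frequent and the median distances are 319 and 304 bp.

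Very wide regions lay mostly at gene starts. A gene start was inside 2416 of them (67.7%), within 1000 bp of another 149 (4.17%), while 766 (21.5%) lay in a gene body away from a start and 239 (6.69%) outside annotated genes. The share with a start inside climbed with width, from 2.28% under 500 bp to 13.0%, 48.1% and 67.7% in the wider classes. Regions with a start inside had a higher median fold enrichment, 3.97, than those in gene bodies, 2.12, or outside genes, 2.18. They were also narrower with MS275 less often, 74.7% against 82.4% and 87.0%, with median log2 ratios of -0.12, -0.36 and -0.38. None of these shares was tested, since all come from the lists that chose the regions.

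A strand-aware table listed a single start position inside 1136 regions with a single MS275 counterpart, and these could be laid out along the gene. They reached a median of 721 bp upstream of the start and 990.5 bp downstream, and the downstream side was the longer in 67.2%. With MS275 the upstream reach changed by a median of -26 bp and the downstream reach by -47 bp, with 63.0% and 67.7% of them shorter. Among 1979 regions with a listed start inside, 270 (13.6%) held starts on both strands, against 11.9% in the class of 1000 bp to under 1500 bp. The order of these starts and the distance between them were not examined, so divergent and convergent pairs are counted alike. By chromosome, the share of shared regions that were very wide ran from 3.52% on chromosome 1 to 6.81% on chromosome 19. Per 100 tested genes the range was 20.0 on chromosome 6 to 27.5 on chromosome 19.

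Of the genes in the RNA files, 2976 had their start within 1000 bp of 2565 very wide regions. For 650 of these genes no strand-aware start was listed and either annotated end was accepted, so a region may lie at the far end of the gene. At 420 regions 2 or 3 genes shared the region, and 1005 regions had no such gene. The RNA test retained 2807 of the 2976 genes (94.3%), of which 2692 were protein-coding, and 169 did not pass the filter on low counts. The filter retained 91.2%, 79.4% and 51.3% of genes at shared regions of 1000 bp to under 1500 bp, 500 bp to under 1000 bp and under 500 bp, and 15.7% of autosomal genes with no shared region.

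RNA levels at very wide regions were higher than at narrower ones, with little step from the class next to them. The median over tested genes was 35.0 CPM, against 27.9, 16.4 and 4.51 CPM at the narrower classes in falling order of width and 1.25 CPM with no shared region. Of the 2807 genes, 67.8% lay above the median of all tested genes (exact binomial 95% interval 66.1% to 69.6%), against 63.3% at regions of 1000 bp to under 1500 bp. CPM is not scaled by transcript length, and exon lengths were not used here. Scaled by the whole span of the gene, introns included, 57.0% of genes at very wide regions lay above the median, against 58.0% in the next class, so on that scale the order of these 2 classes turned. Their genes were longer, with a median span of 33.4 kb against 25.5 kb. Within the very wide regions width and level showed almost no relation, with Spearman's rho of -0.007 across 1644 regions with 1 gene and 1 MS275 region. These regions come from the same libraries and are not replicates.

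Genes of the axonal cytoskeleton were among those with the highest CPM at very wide regions. Nefl and Nefh, subunits of the neurofilaments that fill thick axons, had 5976, 6243 and 6219 CPM and 2784, 3106 and 2873 CPM under vehicle, and 6281, 6611 and 7154 CPM and 2672, 2896 and 3232 CPM with MS275. For both the region lies at 1 annotated end of the gene, with no listed start. Map1b, a microtubule-associated protein of axons, had 4064, 4319 and 4056 CPM under vehicle and 3724, 4037 and 3796 CPM with MS275. Ywhag, a 14-3-3 protein, had a mean over vehicle of 2845 CPM. None of these 4 passed the test, with adjusted p from 0.161 to 0.964 by edgeR's quasi-likelihood test with Benjamini-Hochberg adjustment. Nefl (0.17) passed without MS275 replicate 1.

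More genes at very wide regions fell with MS275 than rose. In the edgeR fit over all 16819 tested genes, at an adjusted p under 0.05, 287 of the 2807 genes at very wide regions were lower (10.2%, exact binomial 95% interval 9.13% to 11.4%) and 121 were higher (4.31%, 3.59% to 5.13%). The background over all tested genes was 5.89% lower, 5.1% higher and 11% in either direction. Their median log2 fold change was -0.03 against 0.00 over all tested genes, and 58.7% of them lay below 0 against 49.5%. Changes were small, with 32 genes lower (1.14%) and 14 higher (0.499%) by at least 1.5 times. Over all tested genes 0.803% were lower and 1.68% higher by that much.

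The share of genes that were lower followed the width class. It was 7.11% at shared regions of 1000 bp to under 1500 bp, 4.98% from 500 bp to under 1000 bp, 2.84% under 500 bp and 1.49% with no shared region. The share that was higher was 4.2%, 6.19%, 10.7% and 6.52% in the same order. Within the very wide class, split by width into 4 ranges, the share that was lower was 8.76%, 11.7%, 12.1% and, at 2500 bp and wider, 14.3% (8 of 56). Their exact binomial intervals overlapped (7.39% to 10.3%, 9.51% to 14.2%, 9.26% to 15.3% and 6.38% to 26.2%). Median gene span in these ranges was 32.2, 33.1, 40.2 and 22.2 kb, and level and span were not held within them. Genes are not independent replicates and the intervals cover counting only.

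RNA level and gene length, which differ between the classes, were held within ranges. Splitting all tested autosomal genes into 3 equal classes of level, genes at very wide regions were lower in 5.57%, 15.9% and 7.66% from the least to the most expressed. At regions of 1000 bp to under 1500 bp the shares were 5.09%, 10.9% and 4.80%, and from 500 bp to under 1000 bp 2.47%, 8.47% and 3.42%. In 3 equal classes of gene span, the shares at very wide regions were 7.30%, 8.78% and 12.9% from short to long, against 4.84%, 7.96% and 8.11% in the next class. The very wide class had the larger share in each of these 6 comparisons with the class next to it. They split the same genes by level and by span, so they are not independent, and both factors were not held together. Exact binomial intervals overlapped for the least expressed genes (3.73% to 7.95% against 3.94% to 6.45%). They also overlapped for short spans (5.56% to 9.38% against 3.86% to 5.97%) and middle spans (6.89% to 11.0% against 6.83% to 9.21%).

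The number of calls depended on single libraries. Without vehicle replicate 1, 2 or 3 in turn, 61, 50 and 138 genes at very wide regions were lower and 22, 11 and 36 were higher, and without MS275 replicate 3 these were 137 and 66. Without MS275 replicate 2, 389 were lower and 186 higher, and without MS275 replicate 1, the library of highest muscle RNA, 268 and 148. In each of the 6 fits the share lower at very wide regions was above that of all tested genes. With the summed muscle level as a covariate, which was higher in every MS275 library than in every vehicle library, 2 were lower and 2 higher, and 16 of all genes were called.

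**Figure D3:**
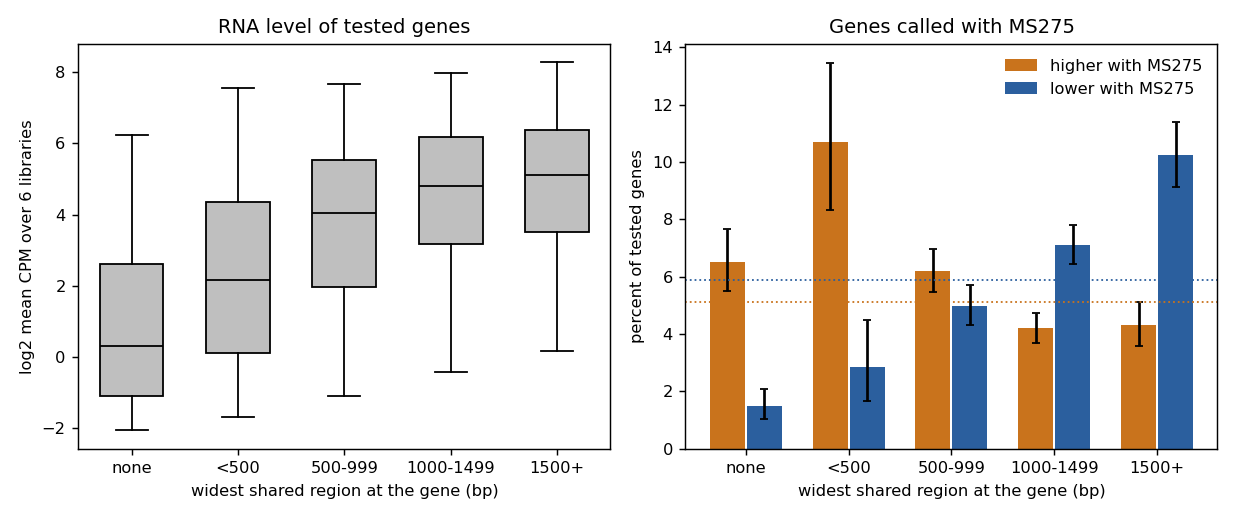
Left, RNA level as log2 mean CPM over the 6 libraries (y axis) of tested genes by the widest shared region at the gene in bp (x axis; none, no shared region); boxes hold the middle 50%, whiskers the central 90%. Right, percent of tested genes higher (orange) or lower (blue) with MS275, with exact binomial 95% intervals and dotted lines at the share over all tested genes; the share lower is 10.2% at very wide regions.

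Width change and RNA change of the same gene went together weakly or not at all. Across the 1644 regions with 1 gene and 1 MS275 region, Spearman's rho between the log2 width ratio and the log2 RNA change was -0.081, given as a description without a test. Genes at regions that stayed within 10% of their width were lower in 12.7% of 1389 cases. At regions narrower by 10% or more the share was 7.57% of 1216, and at regions wider by 10% or more 8.91% of 202. Of the 287 genes that fell, 92 lay at the narrower regions and 177 at those within 10%. The promoters of the genes that fell had more G and C, a median of 68.7% in 229 listed promoters inside very wide regions, than those of genes that rose, 65.3% in 87, or those not called, 66.7% in 1858. Their median CpG counts were 30, 24 and 27, and a TATA box was found in 1.75%, 8.05% and 4.30%.

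The histone acetyltransferases, which add the marks that deacetylases remove, were the list with the largest share at very wide regions. Of 12 tested genes 8 lay there (66.7%, exact binomial interval 34.9% to 90.1%), beside 18.3% of all 15376 tested autosomal genes with a position. Over all tested genes 5.89% fell with MS275, and at very wide regions 10.2% fell, the background for this list and those that follow. RNA of 4 of the 8 acetyltransferase genes there fell and none rose, with a median log2 fold change of -0.29, while none of the other 4 passed. The strongest was Ep300, the p300 acetyltransferase and coactivator, whose region measured 1891 bp in vehicle and 1611 bp with MS275. Its level was 31.2, 30.3 and 32.1 CPM under vehicle and 20.3, 20.1 and 17.1 CPM with MS275, so the groups did not overlap. The log2 fold change was -0.70 (SE 0.07, adjusted p 0.00190 by edgeR's quasi-likelihood test with Benjamini-Hochberg adjustment). Its close relative Crebbp, the CREB-binding protein, went from 22.4, 21.0 and 18.4 CPM to 14.2, 14.3 and 15.0 CPM, a log2 fold change of -0.51. Kat6a and Kat6b, which acetylate histone H3, fell by 0.42 and 0.41 on the log2 scale, and both lost the call without vehicle replicate 1 or 2 (log2 fold changes of -0.43 and -0.36, then -0.41 and -0.44). Kat6a also lost it without vehicle replicate 3 (-0.42). Kat2b, at -0.18 with an edgeR adjusted p of 0.0592, Kat7, Ncoa1 and Ncoa3 did not pass.

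Histone methyltransferases and demethylases had 10 of 20 tested genes at very wide regions, and 5 of these fell and none rose, beside 4 that fell among the other 10. Suv420h1, which methylates histone H4 at lysine 20, showed the largest fall of all genes named here. Its levels were 34.2, 36.2 and 33.6 CPM under vehicle and 19.1, 19.0 and 18.4 CPM with MS275, and no MS275 library reached a vehicle library. The log2 fold change was -0.88 (SE 0.06, adjusted p 0.000576 by edgeR's quasi-likelihood test with Benjamini-Hochberg adjustment), while its region stayed at 2154 bp against 2125 bp. Ezh2, the catalytic subunit of Polycomb repressive complex 2, had 3.65, 4.10 and 3.81 CPM under vehicle and 2.61, 1.84 and 2.49 CPM with MS275, and lost its call without any 1 of the vehicle libraries (-0.78 to -0.70). The H3 lysine demethylases Kdm2a, Kdm3a and Kdm5a fell by 0.25, 0.31 and 0.21 on the log2 scale, and without vehicle replicate 1 or 2 Kdm2a (-0.26 and -0.22) and Kdm3a (-0.34 and -0.31) did not pass. Kdm3a also did not pass without vehicle replicate 3 (-0.27) or MS275 replicate 3 (-0.29). Nsd1, at the eighth widest region, had a log2 fold change of -0.11 and did not pass.

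Deacetylases and their co-repressor partners had 14 of 31 tested genes at very wide regions, of which 5 fell and none rose, beside 2 falls and 2 rises among the other 17. The deacetylases that MS275 inhibits were there themselves and did not pass. Hdac1 had 26.0, 26.0 and 27.8 CPM under vehicle and 26.0, 27.8 and 27.2 CPM with MS275, and Hdac2 112, 111 and 112 CPM and 113, 117 and 115 CPM. Hdac3 had 72.7, 72.6 and 77.5 CPM and 72.6, 72.7 and 80.9 CPM, with edgeR adjusted p of 0.492 to 0.835 over the 3 genes. The genes that fell were partners of the deacetylases, which the list was built to hold. Chd4, Mta2, Mta3 and Rcor1, other partners at very wide regions, did not pass. Mier3, which binds class I deacetylases, went from 12.6, 14.4 and 13.0 CPM to 7.86, 6.77 and 7.30 CPM, a log2 fold change of -0.87 (SE 0.09, adjusted p 0.00190 by edgeR's quasi-likelihood test with Benjamini-Hochberg adjustment). Ing1 and Ing2, histone readers of the Sin3 complex, fell by 0.40 and 0.69 on the log2 scale, Sin3a, its scaffold, by 0.48 and Rcor3, a CoREST protein, by 0.30. Ing1 did not pass without vehicle replicate 1 (-0.38) or 2 (-0.41).

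Chromatin readers and remodellers had 9 of 24 tested genes at very wide regions, and 4 of these fell and none rose, with a median log2 fold change of -0.11. Among the other 15 genes 4 also fell and none rose, with a median of -0.09. Brd1, a bromodomain protein of acetyltransferase complexes, had 40.0, 39.8 and 40.4 CPM under vehicle and 30.3, 29.1 and 30.7 CPM with MS275. The remodellers Chd1 and Ino80 fell by 0.46 and 0.51 on the log2 scale, and Ino80 did not pass without vehicle replicate 1 (-0.49) or 2 (-0.48). Arid1a fell by 0.19, from 68.6, 74.4 and 68.5 CPM to 59.3, 62.8 and 62.9 CPM, and did not pass without MS275 replicate 1 or 3 or without any 1 of the vehicle libraries (-0.21 to -0.15). Among splicing factors 11 of 30 lay at very wide regions and 1 fell, Srsf7, by 0.34, beside 3 that fell among the other 19.

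**Figure D4:**
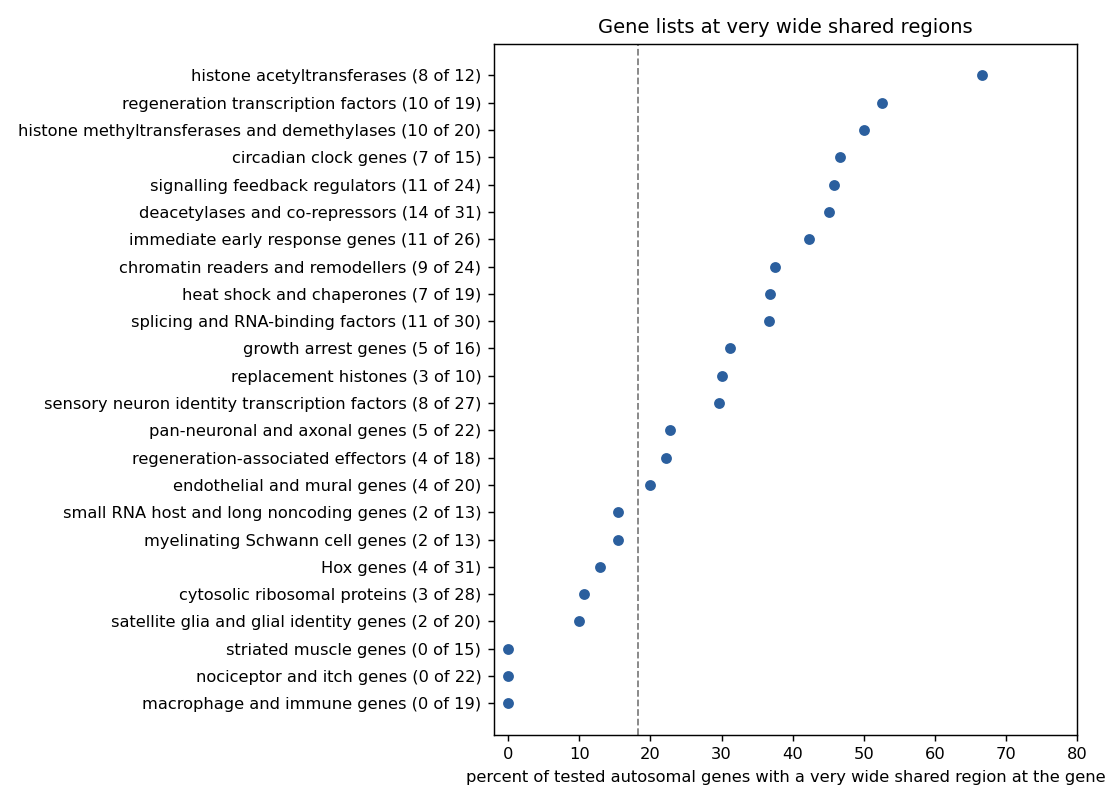
Percent of tested autosomal genes of each list that have a very wide shared region at the gene (x axis), with the counts beside each list's name; the dashed line marks 18.3%, the share over all such genes. Histone acetyltransferases stand highest at 8 of 12, and no gene of the macrophage, nociceptor and striated muscle lists lies at such a region.

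Transcription factors of axon regeneration were frequent at very wide regions, but most of them did not pass the RNA test. Of 19 such factors 10 lay there (52.6%), among them Atf3, Cebpb, Cebpd, Klf9, Smad1 and Sox11, and only Rest fell. Other lists had similar shares, such as circadian clock genes (46.7%) and feedback regulators of signalling (45.8%). Rest, the repressor of neuronal genes outside neurons, had 8.33, 8.53 and 8.10 CPM under vehicle and 5.91, 5.08 and 4.40 CPM with MS275, a log2 fold change of -0.69 (SE 0.11, adjusted p 0.00901 by edgeR's quasi-likelihood test with Benjamini-Hochberg adjustment). Rest did not pass without vehicle replicate 2 (-0.68). Atf3, a marker of injured neurons, had 47.8, 52.3 and 41.5 CPM under vehicle and 42.5, 62.4 and 37.4 CPM with MS275, with overlapping groups. Of 18 regeneration-associated effectors 4 lay at very wide regions (22.2%, near the 18.3% of all tested autosomal genes with a position) and none passed. All mice had the lesion, so these values do not show the injury response itself.

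Immediate early response genes had 11 of 26 tested genes at very wide regions, and 3 of these rose and none fell. The other 15 genes of the list had 2 rises and 3 falls. Over all tested genes 5.1% rose and 5.89% fell. Ier5, a gene induced by stress and growth signals, went from 5.77, 5.46 and 5.27 CPM to 12.7, 10.9 and 10.9 CPM, a log2 fold change of 1.06 (SE 0.09, adjusted p 0.00117 by edgeR's quasi-likelihood test with Benjamini-Hochberg adjustment). Its region was 1964 bp in vehicle and 1913 bp with MS275. Ier3 had 24.6, 24.5 and 24.9 CPM under vehicle and 42.7, 40.8 and 39.1 CPM with MS275, and Zfp36l2, which binds AU-rich RNA, rose by 0.44 on the log2 scale while its region went from 1829 to 1217 bp. The AP-1 gene Jun, at 184, 199 and 191 CPM under vehicle and 193, 242 and 190 CPM with MS275, and Egr1 and Myc did not pass.

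Feedback regulators of signalling had 11 of 24 at very wide regions. Socs2, an inhibitor of cytokine signalling, and Dusp5, a phosphatase of ERK, rose by 0.45 and 0.34 on the log2 scale, and Tnfaip3, which restrains NF-kappaB, fell by 0.63. Among 5 of 16 growth arrest genes, Cdkn1a, the p21 inhibitor of cyclin-dependent kinases, had 94.3, 86.2 and 87.1 CPM under vehicle and 125, 121 and 104 CPM with MS275, a rise of 0.39. Ccng2, cyclin G2, fell by 0.39. Without vehicle replicate 2 Socs2 (0.45), Dusp5 (0.31) and Cdkn1a (0.36) did not pass, nor did Ccng2 (-0.35) without vehicle replicate 1 or Tnfaip3 without any 1 of the vehicle libraries (-0.73 to -0.49) or MS275 replicate 3 (-0.64). Of 15 circadian clock genes 7 lay at very wide regions and none passed, and of 19 chaperone genes 7 lay there and none passed.

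Endothelial and mural genes had 4 of 20 tested genes at very wide regions, near the 18.3% background, and 3 of the 4 rose. Sox18, a transcription factor of vessels, had the largest rise of the genes named here, from 5.07, 4.29 and 5.50 CPM to 13.0, 11.4 and 10.1 CPM, a log2 fold change of 1.22 (SE 0.12, adjusted p 0.00190 by edgeR's quasi-likelihood test with Benjamini-Hochberg adjustment). Cldn5, the tight junction protein of vessels, and Sox17 rose by 0.54 and 0.44, and their regions went from 1847 to 1129 bp and from 2163 to 1577 bp. Without any 1 of the vehicle libraries Cldn5 (0.51 to 0.59) and Sox17 (0.35 to 0.51) did not pass, nor did they without MS275 replicate 3 (0.48 and 0.46), and Sox18 passed in each of these fits. Flt1, a receptor for vascular growth factor, had a log2 fold change of 0.04 and did not pass. The other 16 genes of the list, away from very wide regions, had 6 rises and no falls. The summed level of the 3 endothelial defining genes, Cldn5 among them, was 50.5 to 56.4 CPM under vehicle and 61.3 to 76.9 CPM with MS275, none at 0, and its part in these rises was not tested.

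Identity genes of neurons and glia were mixed. Sensory neuron transcription factors had 8 of 27 at very wide regions with no call, and Runx1, needed for nociceptor identity, was nearest, from 76.9, 68.5 and 73.0 CPM to 83.33, 80.03 and 83.5 CPM with an edgeR adjusted p of 0.0512. It passed with DESeq2, with upper quartile normalisation, without the low-count filter and without MS275 replicate 2. Pan-neuronal genes had 5 of 22 there, of which Elavl4, the neuronal RNA-binding protein HuD, rose by 0.19, with its region going from 1665 to 675 bp, and did not pass without any 1 of the vehicle libraries (0.19 to 0.20). None of 22 nociceptor genes lay at a very wide region. Schwann cell genes had 2 of 13, with a rise of 0.38 at Pou3f1, a factor of promyelinating Schwann cells, lost without any 1 of the vehicle libraries or MS275 replicate 3 (0.33 to 0.42), and satellite glia genes 2 of 20 with no call. Of 31 Hox genes 4 lay at very wide regions, and Hoxa4 rose by 0.67 but did not pass with limma voom (0.64) or in 5 of the 6 fits without 1 library (0.58 to 0.74). Ribosomal protein genes had 3 of 28, replacement histones 3 of 10 and host genes of small and long noncoding RNAs 2 of 13, with no call.

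Outside these lists, the 12 largest falls held genes of several functions. Pdik1l, a kinase, went from 9.54, 11.6 and 10.3 CPM to 5.48, 6.15 and 5.97 CPM, and Mex3b, an RNA-binding ubiquitin ligase, from 11.5, 11.1 and 11.8 CPM to 6.46, 5.99 and 7.12 CPM, log2 fold changes of -0.84 and -0.82. Both passed in each of the 6 fits that left out 1 library, as did Suv420h1, Mier3, Ep300, Sox18, Ier5, Ier3 and Sox4. Zc3hav1l, Rab32, Sh2d4a, Ccdc142, Tfap4, N4bp2 and Zbed4 fell by 0.73 to 0.84 from vehicle means of 2.57 to 3.54 CPM, and each lost its call without 1 or more of the libraries. The regions at 4 of these 7 were wider with MS275, 1508 to 1967 bp at Rab32, 1595 to 2211 bp at Sh2d4a, 1823 to 2797 bp at Tfap4 and 1724 to 1726 bp at N4bp2, and the other 3 were narrower.

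Among the other rises, Sox4, a transcription factor of progenitors, had 27.0, 27.9 and 24.4 CPM under vehicle and 38.2, 37.7 and 39.6 CPM with MS275, a log2 fold change of 0.54. Ddit4, a stress-induced inhibitor of mTORC1, had 86.8, 80.7 and 78.1 CPM and 127, 100 and 128 CPM, and Insm2, a zinc-finger factor, 18.002, 16.7 and 17.5 CPM and 26.0, 21.8 and 26.9 CPM. B2m, the light chain of MHC class I, had 114, 136 and 137 CPM under vehicle and 168, 168 and 206 CPM with MS275, a rise of 0.49. Without vehicle replicate 2 Ddit4 (0.52), Insm2 (0.48) and B2m (0.53) did not pass, nor did B2m (0.41) without vehicle replicate 1. Plin4, a lipid droplet protein, and Ppp1r3b, a glycogen-targeting subunit of protein phosphatase 1, rose by 0.74 and 0.65, each highest in MS275 replicate 1 at 13.6 and 12.1 CPM against 7.33 to 9.70 CPM in the other MS275 libraries. That library also held the most muscle RNA. Without it Plin4 (0.51) and Ppp1r3b (0.38) still passed, and with the summed muscle level as a covariate (0.155 and 0.173) they did not, as was so for 44 of 48 named genes that had passed. Hspb2, a small heat shock protein, rose by 0.53 from a vehicle mean of 2.99 CPM. None of Plin4, Ppp1r3b and Hspb2 passed without any 1 of the vehicle libraries, with log2 fold changes of 0.45 to 0.84, nor did Hspb2 without MS275 replicate 3 (0.49).

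No strand setting is stated for the RNA counts, so reads of genes that overlap another annotated gene cannot be told apart from those of the partner. Among the named genes that passed, this holds for Suv420h1, Ezh2, Sox4, B2m, Plin4, Hspb2, Hoxa4, Sh2d4a, Ccdc142, Ep300, Brd1, Chd1, Sin3a, Kat6a, Kdm2a, Socs2, Rest and Arid1a. For Sox18, Ppp1r3b, Rest, Kat6a, Kdm2a, Sox17, Socs2, Zfp36l2, Pou3f1, Hoxa4, Hspb2, Sh2d4a, Ccdc142, Tfap4, Chd1, Nsd1, Hdac1 and Hdac3 no listed start was used and the region lies at 1 of the gene's annotated ends.

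**Figure D5:**
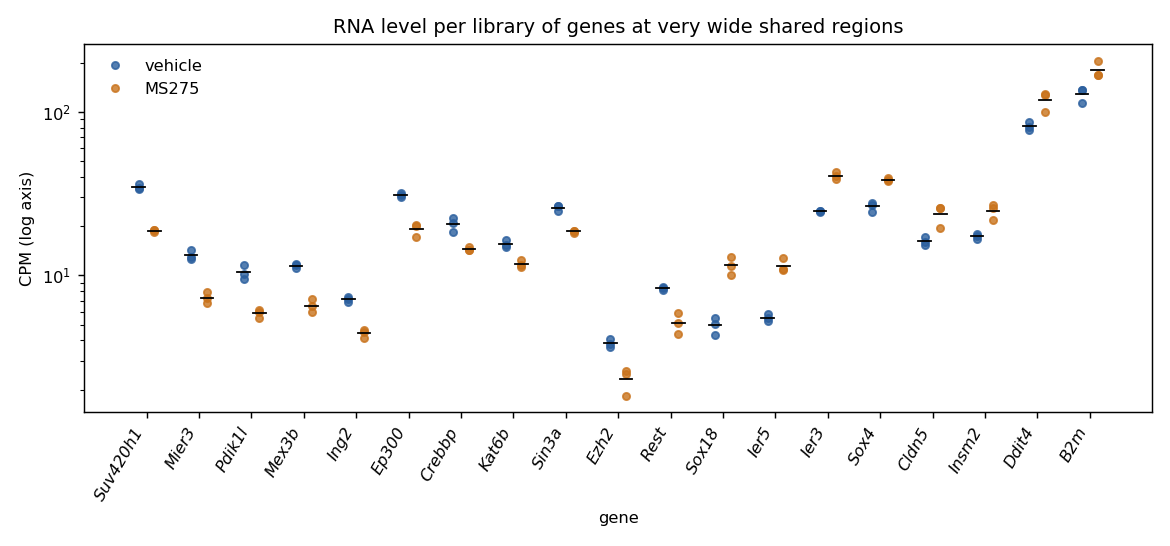
CPM on a log axis (y axis) of 19 genes at very wide shared regions (x axis) in the 3 vehicle libraries (blue) and the 3 MS275 libraries (orange), with black lines at the group means. In each of these genes the 2 groups do not overlap, with 11 lower and 8 higher with MS275. The genes were picked from those called, many by a rule that required groups without overlap, so both facts describe the choice. CPM is not scaled by transcript length, so levels are not compared between genes.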

How the data were processed

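RNA-seq and ATAC-seq libraries of lumbar DRG were analysed, with groups taken from the treatment in the labels. The deposited RNA files hold raw read counts per gene symbol. Build mm10 is named, and FastQC 0.10.1, STAR 2.7.0, R 3.5.0, limma 3.38.3 and edgeR 3.24.3 are listed without roles, per the submitters' processing notes. The counter with its strand setting, the ATAC aligner and the peak caller go unnamed (not given in the sources used here). The deposited ATAC files are peak lists that combine the 3 libraries of a treatment, so ATAC depth is unknown. Their columns hold, by their layout and values as the authors deposited them, a score, a summit offset, a fold enrichment ratio and −log10 p-values and q-values. Entries of 1 list that overlapped shared the same interval and differed in summit.

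Here entries were merged within each list and each vehicle region was joined to MS275 regions that overlap it by at least 1 bp. Genes were placed by the start in a RefSeq promoter table or, where none was listed, by either end in the RefSeq gene table (both GRCm38.p6, the assembly of mm10). Of 44345 symbols 31480 had a position, 1939 of them through synonyms, and 18835 a listed start; of 16819 tested genes 15945 had a position and 15376 lay on autosomes. The 5 rows that name no gene, 18.9% to 20.6% of a library's reads, were left out. Tests used edgeR 4.0.16 in R 4.3.3 (TMM, filterByExpr, quasi-likelihood, 2-sided, Benjamini-Hochberg over all tested genes, adjusted p under 0.05), and the code was tested on simulated data. Levels are CPM, and the biological coefficient of variation over both groups was 8.62%. MS275 libraries agreed less with each other than vehicle libraries did. The chi-square per degree of freedom between pairs of libraries was 18.5 to 53.2 within MS275 and 7.2 to 8.78 within vehicle. The summed level of 2 erythroid (red blood cell) genes was 115 CPM in MS275 replicate 1 and 26.2 to 53.2 CPM in the other libraries.

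The regions, gene lists and tests were chosen with earlier results of these data known. Named regions are the 10 widest, 5 largest gains, 5 largest losses and 5 with most summits. Named genes are the 12 largest changes per direction among called genes at very wide regions with non-overlapping groups, a mean log2 CPM of 1 or more and no provisional symbol, the genes at the 10 widest regions, the 5 of highest CPM, the class I deacetylases Hdac1 to Hdac3, and up to 4 genes per list by smallest p; Erbb4, Rreb1, Kdm5a, Rcor3, Kat2b, Atf3, Jun, Egr1 and Myc were named after their values were seen. One gene that the rule names is not reported here. Alternatives covered width, overlap, merging, peak strength, gene window, normalisation, test, filter, a replicate block, a muscle covariate and each library left out.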

Additional observations from a re-analysis of the deposited data

How the results depend on the processing

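With 1000 bp as the threshold there were 14360 regions, 72.4% narrower and 45.4% with fewer summits, with 9300 genes, 64.8% above the median level, 363 higher and 697 lower. With 2000 bp there were 639 regions, 83.1% narrower and 52.4% with fewer summits, with 564 genes, 69.8% above the median, 27 higher and 65 lower. Chosen by MS275 width, 42.8% were narrower, which turned the direction, and 31.6% had fewer summits; by the mean of both widths, an alternative chosen after seeing the data, the values were 58.3% and 35.8%. An overlap of at least 50% gave 75.3% and 45.6%, the widest MS275 region alone 81.3% narrower, and the share with fewer summits was 43.6% at a −log10 q of at least 5 and 51.7% with entries within 100 bp merged. Lists of equal size left 77.3% narrower. Genes above the median were 57.0% per kb of gene span and 88.1% without the low-count filter.

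Leaving out 1 library at a time, 261 to 2763 of all genes were called (1849 with all libraries), and 11 to 186 were higher and 50 to 389 lower at very wide regions. With the muscle covariate 16 genes were called, 2 higher and 2 lower at very wide regions; at an adjusted p under 0.01 350, 18 and 71; with 1.5-fold as well 417, 14 and 32. The cause of these differences was not tested, apart from fewer samples and stricter thresholds. The replicate block gave 2088 calls, 147 higher and 314 lower at very wide regions, and of the named genes it added Clock, Rpl3, Bhlhe40, Creb1 and Runx1. Deviations from the group mean were nearly uncorrelated between samples of the same number (correlations 0.02, 0.11 and -0.06). With 3 libraries per group this cannot decide whether the numbers pair them. Calls by DESeq2 (2284), limma voom (1775), upper quartile normalisation (1821) and without the filter (2397) stayed within 1.5 times. In all 14 alternatives to the RNA fit the share lower at very wide regions was above that of all genes, by 1.42 to 2.55 times in 13 of them, and the covariate fit rests on 2 genes. Of 48 named genes that passed, 0 lost their call with DESeq2, upper quartile normalisation, no filter or the block, 3 with limma voom (Hoxa4, Ppp1r3b and Sh2d4a), 44 with the muscle covariate, and 1 to 31 without 1 library, most without vehicle replicate 2. With only genes that have a listed start, also chosen after seeing the data, 92 of the genes at very wide regions were higher and 231 lower. For a ratio of widths, the pooled lists set the limit, since no spread between mice can be given.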
